A study of Homo sapiens with 10 samples.

Results

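The RUNX factors RUNX1, RUNX2 and RUNX3, their shared partner CBFB, and the corepressors of the ETO family (RUNX1T1, CBFA2T2 and CBFA2T3) were followed in RNA-Seq data of IRF8 KO and control MV4-11 cells. These 7 genes were taken by symbol from the 19590 genes of the deposited expression table. Of them, 6 averaged 10 normalized counts or more across the 8 libraries and so were among the 13110 genes tested, and RUNX1T1 was not. The interferon regulatory factor IRF8 is a transcription factor of myeloid and B lineage cells, and the comparison asks how the RNA of these genes differs once IRF8 is disrupted.

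MV4-11 is an established cell line from an acute myeloid leukemia with monocytic features, grown in RPMI medium with fetal calf serum. The control cells (4 libraries) had been infected with a lentiviral CRISPR vector without a guide against IRF8. The IRF8 KO cells (4 libraries) came from the same line, infected with lentiCRISPR vectors that carry a guide against IRF8, and were grown as single-cell clones. The sources used here do not give the clone behind each library, and they do not say that the replicates were separate cultures. The p-values therefore measure the spread between these libraries, which may be technical.

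RUNX proteins bind DNA through their Runt domain. CBFB does not bind DNA itself but raises the affinity and the stability of the RUNX proteins. RUNX1 is required for the emergence of blood stem cells, RUNX2 directs bone formation, and RUNX3 acts in T cells, NK cells and sensory neurons, while all of them are found in blood cells. The ETO proteins do not bind DNA on their own and bring NCOR, SIN3A and histone deacetylases to transcription factors. RUNX1, CBFB and RUNX1T1 are best known in leukemia as partners in fusion genes.

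Windows of 300 bases around annotated start sites (250 bases before and 50 after, RefSeq, GRCh38.p14) were found for 5 of the genes, and they held 7 windows in all. CBFB had no entry in the table, and no window of RUNX1T1 was searched. They were searched on both strands for the RUNX core TGTGGT, the IRF core AANNGAAA and the ETS-IRF composite GGAANNGAA. The RUNX core was in 13.1% of all 34796 windows, the IRF core in 22.9% and the composite in 7.80%. The windows with a match are shown because they belong to RUNX genes, with RUNX cores in capitals for RUNX2 and RUNX3 and composite matches in capitals for RUNX1.
RUNX2 upstream start, chr6:45328080-45328379, plus strand: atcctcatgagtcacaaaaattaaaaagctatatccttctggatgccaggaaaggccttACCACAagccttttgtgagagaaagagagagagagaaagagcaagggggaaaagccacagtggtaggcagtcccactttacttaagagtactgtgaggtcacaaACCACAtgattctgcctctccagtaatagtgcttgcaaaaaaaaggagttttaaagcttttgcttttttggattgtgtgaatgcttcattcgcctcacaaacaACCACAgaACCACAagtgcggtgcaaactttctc
RUNX3 upstream start, chr1:24964961-24965260, minus strand: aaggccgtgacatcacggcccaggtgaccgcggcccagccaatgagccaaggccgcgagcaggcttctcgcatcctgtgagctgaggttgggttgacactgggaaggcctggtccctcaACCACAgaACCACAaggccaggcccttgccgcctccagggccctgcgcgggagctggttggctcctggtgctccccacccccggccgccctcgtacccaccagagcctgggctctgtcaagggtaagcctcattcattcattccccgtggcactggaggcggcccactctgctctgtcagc
RUNX1, chr21:34888650-34888949, minus strand: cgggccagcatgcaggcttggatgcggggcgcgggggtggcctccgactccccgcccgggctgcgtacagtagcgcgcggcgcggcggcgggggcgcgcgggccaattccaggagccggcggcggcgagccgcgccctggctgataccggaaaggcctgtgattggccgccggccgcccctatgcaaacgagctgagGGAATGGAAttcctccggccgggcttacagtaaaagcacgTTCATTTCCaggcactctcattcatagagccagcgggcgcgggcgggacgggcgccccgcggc

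The upstream window of RUNX2 held 4 RUNX cores and that of RUNX3 held 2. Both windows share the 18-base run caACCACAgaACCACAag, with 2 RUNX cores in it, and no window of any other gene held this run (2 of 34796 windows). It begins at position 14 from the RUNX2 start and at position -133 from the RUNX3 start. The only RUNX1 window held 2 composite matches, at -53 and -13. It lay inside the gene span (chr21:34787801-35049302), and RUNX1 had no window at the upstream end of that span. Whether the 18-base run occurs there was therefore not examined. The downstream windows of RUNX2 and RUNX3 and the windows of CBFA2T2 and CBFA2T3 held none of the motifs, and no IRF core was in any of the 7 windows. A missing match says only that these letters are not in the window.

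**Figure D1:**
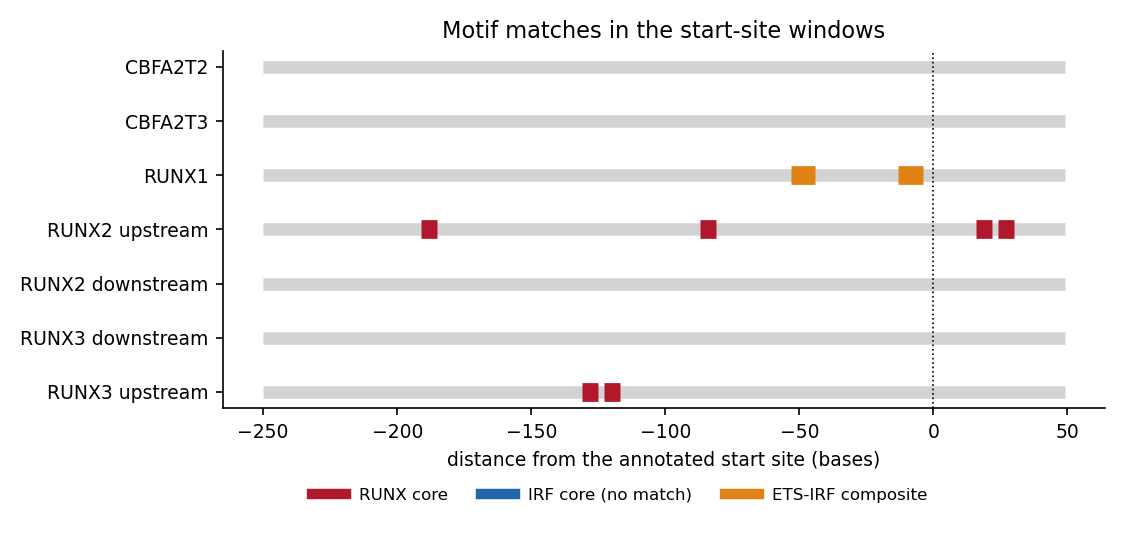
Motif matches in the 7 start-site windows, drawn by distance in bases from the annotated start (dotted line), one grey bar per window. RUNX cores (red) lie in the upstream windows of RUNX2 (4) and RUNX3 (2), and 2 ETS-IRF composite matches (orange) lie in the RUNX1 window.

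Sequencing depth ranged from 39560072 to 65519047 gene-assigned reads per library (median 52233344). All values are normalized counts, that is reads per gene after division by a library's size factor. IRF8 itself (chr16:85899162-85922609) had 36891, 15192, 43016 and 22535 normalized counts in control replicates 1 to 4 and 6377, 2401, 12903 and 7820 in IRF8 KO replicates 1 to 4. Its log2 fold change (IRF8 KO minus control) was -2.11 (SE 0.51, adjusted p = 0.022 by limma). A disrupted gene can still be transcribed, and the IRF8 RNA of the KO libraries was 25.1% of the control mean. Leaving out control replicate 1 or 3 or IRF8 KO replicate 1 gave adjusted p = 0.058, 0.057 and 0.053.

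As a check of the cells, the 10 monocytic markers were all above the minimum of the test. Of them, 6 rose and 0 fell in IRF8 KO cells, beside 8.65% higher and 9.56% lower of all tested genes. The rises were PTPRC, ITGAM, CD4, FCGR1A, CLEC7A and MPO, and MPO is a granule protein. CD33 (log2 fold change -0.34), CSF1R (-0.27) and CD14 (1.35) did not pass the test. The summed level of the 10 was 24549 to 31304 normalized counts in control and 69823 to 310240 in IRF8 KO libraries. CLEC7A, one of the rises, and CD14 reached the minimum of the test through their IRF8 KO libraries alone, and the call of PTPRC was lost in 5 of the 8 fits that left out a library (adjusted p = 0.051 to 0.071 by limma in those 5). In IRF8 KO replicate 1, LYZ alone made up 248604 of the 310240, while the other IRF8 KO sums were at most 94331. LYZ did not pass the test and its groups overlapped (limma adjusted p = 0.060). The T cell markers summed to at most 29.8 and the erythroid markers to at most 9.48 normalized counts in any library. Among B lineage genes, CD79A (112 to 410 normalized counts in control, 136 to 881 in IRF8 KO libraries) and CD79B (286 to 460 against 269 to 1133) did not pass the limma test, PAX5 was under its minimum (8.47 to 20.7 against 0 to 3.82), and MS4A1 was at 0 in every library. Of the 9 epithelial and fibroblast markers, 4 were tested and KRT8 and KRT18 fell, while KRT19 and COL3A1 were at 0 everywhere. COL1A1 (log2 fold change -0.48) did not pass the limma test. Neither did PDGFRB, which had a higher mean in IRF8 KO cells (1.57, 11.8 to 75.9 normalized counts in control, 14.9 to 406 in IRF8 KO libraries). KRT18 (451 to 539 normalized counts in control, 4.26 to 9.48 in IRF8 KO libraries) reached the minimum through its control libraries alone. The sum of the 9 went from 1505 to 3815 in control to 83.1 to 631 in IRF8 KO libraries. Whether these shifts have a part in the results below was not tested. In bulk samples, fewer cells of a type and less RNA per cell cannot be told apart.

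All 6 tested genes had a lower mean in IRF8 KO cells, and their median log2 fold change was -1.07, beside -0.00094 over all tested genes. At an adjusted p below 0.05 (limma, on log2 of normalized count plus 1), 4 of the 6 fell, RUNX2, RUNX3, CBFA2T2 and CBFA2T3, and 0 rose. Of all tested genes, 9.56% were called lower and 8.65% higher. At the thresholds of the study (p below 0.01 and at least 2-fold), 3 of the 6 were lower, RUNX2, RUNX3 and CBFA2T2, beside 6.12% of all genes. In 5 of the 6, no IRF8 KO library reached the lowest control library, which held for 13% of all genes. In each of the 24 pairs of same-numbered libraries over these genes, the IRF8 KO value was the lower one. For the 5 genes without overlap this had to be so, and only the pairs of RUNX1 could have gone otherwise.

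RUNX3 (chr1:24899511-24965138) showed the largest fall of the 6 genes. Its control libraries held 7718, 8105, 7857 and 6245 normalized counts and its IRF8 KO libraries 1376, 2431, 1461 and 1880. The groups were far apart, with the lowest control library above the highest KO library by more than the range of either group. The mean went from 7481 ± 839 to 1787 ± 482 (SD, n = 4 each), which is 23.9% of the control mean. On the log2 scale the fold change was -2.10 (SE 0.19, 95% interval -2.53 to -1.66, limma adjusted p = 2.5e-04).

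RUNX2 (chr6:45328330-45551082) had 12316, 29204, 13485 and 25268 normalized counts in control and 5304, 9666, 4851 and 9647 in IRF8 KO libraries. Replicates 2 and 4 were higher than replicates 1 and 3 in both groups, by 2.11-fold in control and 1.90-fold in IRF8 KO cells. The mean was 20068 ± 8445 in control and 7367 ± 2651 in IRF8 KO cells (SD, n = 4 each), or 36.7% of control, and the groups did not overlap. The log2 fold change was -1.42 (SE 0.35, limma adjusted p = 0.024). In the blocked fit, which pairs libraries by replicate number, the SE was 0.10 and the adjusted p 1.9e-04. What a replicate number marks is not stated, so blocked results here and below rest on an uncertain pairing. Control replicate 1 deviated across genes most like IRF8 KO replicate 3 (r = 0.47, against 0.37 for IRF8 KO replicate 1). Leaving out control replicate 2 or 4 or IRF8 KO replicate 1 or 3 raised the adjusted p to 0.053, 0.065, 0.068 and 0.068. SUPT3H overlaps RUNX2 on the opposite strand, and whether reads were counted by strand is not stated by those sources. SUPT3H had a log2 fold change of -0.42 (SE 0.34, adjusted p = 0.46).

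RUNX1 (chr21:34787801-35049302) had 21152, 24909, 21578 and 25439 normalized counts in control and 15758, 21007, 13389 and 21532 in IRF8 KO libraries. The groups overlapped, since IRF8 KO replicate 4 exceeded control replicate 1, and replicates 2 and 4 were again the higher ones in both groups. The mean was 23269 ± 2216 in control and 17921 ± 3991 in IRF8 KO cells (SD, n = 4 each), or 77.0% of control. The log2 fold change was -0.40 (SE 0.17, 95% interval -0.79 to -0.01), which did not pass the test (limma adjusted p = 0.15). It passed in the blocked fit (adjusted p = 0.035). The counts are per gene and do not separate transcripts from different start sites.

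CBFB (chr16:67029149-67101058) had 10155, 8877, 10841 and 8700 normalized counts in control and 7562, 6884, 8048 and 7803 in IRF8 KO libraries. The groups did not overlap, but the gap between them was small. The mean was 9643 ± 1029 in control and 7574 ± 501 in IRF8 KO cells (SD, n = 4 each), or 78.5% of control. The log2 fold change was -0.34 (SE 0.12, 95% interval -0.61 to -0.08) and did not pass the test (limma adjusted p = 0.072), whereas it passed in the blocked fit (adjusted p = 0.039).

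**Figure D2:**
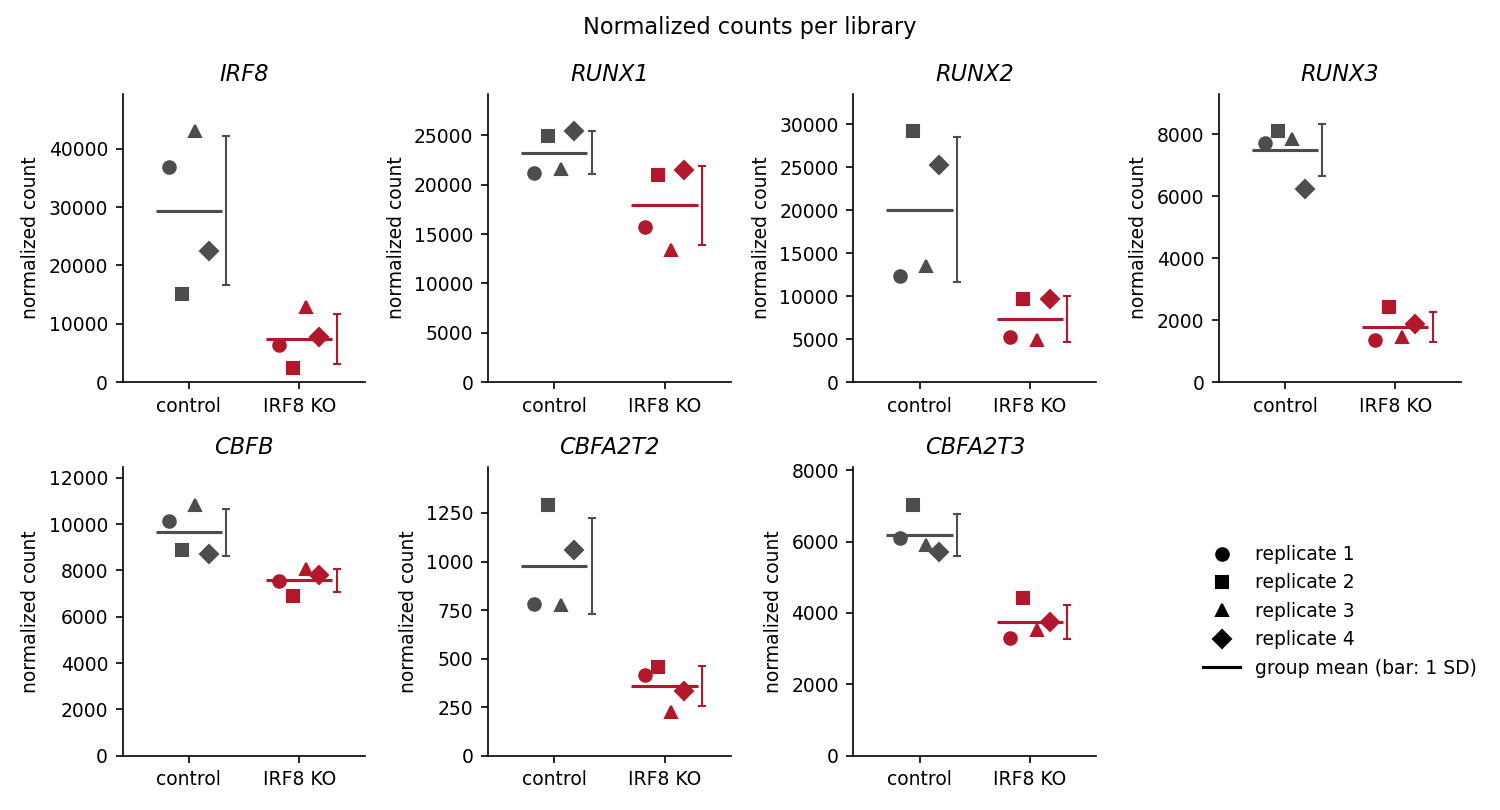
Normalized counts (vertical axis, from 0) of IRF8 and the 6 tested genes in each control (grey) and IRF8 KO (red) library, with replicate number by symbol, the group mean as a line and 1 SD as a bar. The groups of RUNX3 lie far apart (6245 to 8105 against 1376 to 2431), and those of RUNX1 overlap.

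Among the ETO family, CBFA2T2 (chr20:33490096-33650030), also known as MTGR1, had 781, 1293, 775 and 1061 normalized counts in control and 418, 455, 225 and 335 in IRF8 KO libraries. Every IRF8 KO library was below every control library. The mean was 978 ± 249 in control and 358 ± 102 in IRF8 KO cells (SD, n = 4 each), or 36.6% of control. This gave a log2 fold change of -1.46 (SE 0.26, limma adjusted p = 0.0060).

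CBFA2T3 (chr16:88874858-88977207), also known as MTG16 or ETO2, is the ETO protein found in blood progenitors and erythroid complexes. It had 6091, 7033, 5903 and 5699 normalized counts in control and 3288, 4406, 3530 and 3740 in IRF8 KO libraries, without overlap. The mean was 6182 ± 590 in control and 3741 ± 481 in IRF8 KO cells (SD, n = 4 each), or 60.5% of control. The log2 fold change was -0.73 (SE 0.13, limma adjusted p = 0.0051), which is less than 2-fold. RUNX1T1, the founder of the family, was at 0 in 6 of the 8 libraries. Only 1 read was counted in control replicate 3 and 1 in IRF8 KO replicate 4. Both groups are under the limit of 3 reads per library, 2.41 to 4.06 normalized counts, so no difference was detectable at this depth.

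Whether the genes differed in the size of their change was examined after the values had been seen, by comparing the log2 ratio of each of the 15 pairs of genes between groups. In 7 pairs the ratios did not overlap, beside 28.7% of all pairs of tested genes. The log2 fold change of RUNX3 was below that of CBFB by a difference of -1.75 and below that of CBFA2T3 by -1.37, and that of RUNX1 was above that of RUNX2 by 1.02. With 4 against 4 libraries the smallest possible exact p was 0.029, and adjusted over the 15 pairs these were 0.061, so 0 pairs passed the correction. Levels were not compared between genes, since only lengths of whole gene spans were at hand.

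**Figure D3:**
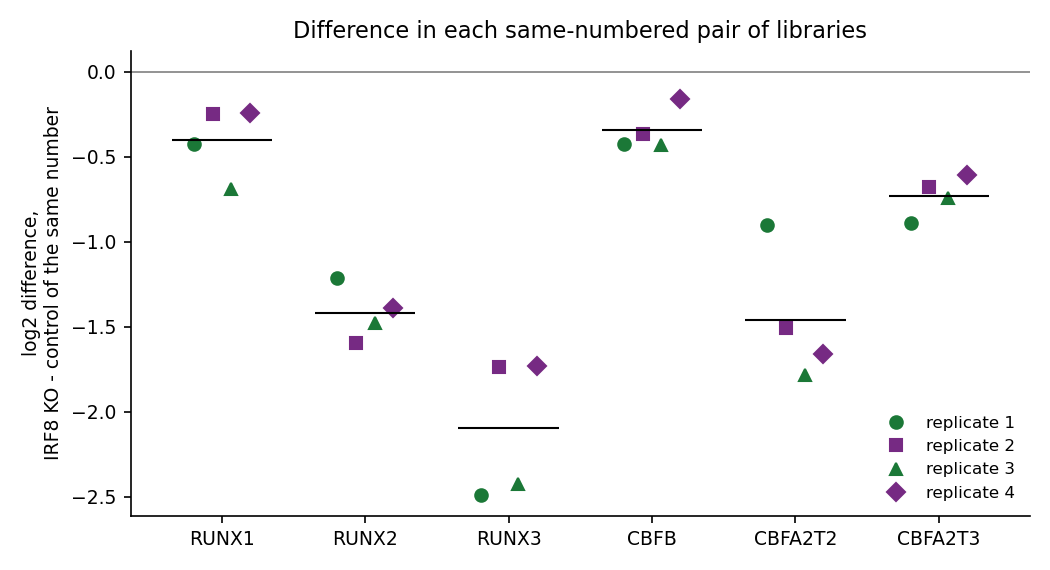
Log2 difference between the IRF8 KO and the control library of the same replicate number (vertical axis) for each tested gene, with the limma fold change as a line; replicates 1 and 3 are green and replicates 2 and 4 purple. All 24 points lie below 0, which the lack of overlap fixes for every gene but RUNX1. For RUNX3, replicates 1 and 3 lie lower than replicates 2 and 4.

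The replicates also varied together. Within replicates 1 and 3 the log2 fold change was -2.46 for RUNX3, -1.35 for RUNX2 and -0.56 for RUNX1, and within replicates 2 and 4 it was -1.73, -1.49 and -0.24. For CBFB, CBFA2T2 and CBFA2T3 it was -0.43, -1.34 and -0.82 in the first pair and -0.26, -1.58 and -0.64 in the second. Their direction was the same in both, as it must be where the groups do not overlap. Among the control libraries alone, replicates 2 and 4 had less IRF8 than replicates 1 and 3, with more RUNX1, RUNX2 and CBFA2T2 RNA and less CBFB. Among the IRF8 KO libraries the order was mixed for IRF8, CBFA2T2 and CBFB. There, replicates 2 and 4 had more RUNX1, RUNX2, RUNX3 and CBFA2T3 RNA.

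The position of the genes was considered, since the genes of some chromosomes shifted together. The 351 tested genes of chromosome 20 had a median log2 fold change of -0.92, 91.7% of them were lower in IRF8 KO cells, and 17.9% were as low as CBFA2T2. Relative to that median CBFA2T2 was lower by a log2 difference of -0.54, with overlapping groups (exact permutation p = 0.17, two-sided). Of its 6 nearest tested neighbours 5 fell, among them NECAB3 (-1.38, limma adjusted p = 8.9e-04), CDK5RAP1 (-0.67, adjusted p = 0.017) and E2F1 (-0.96, adjusted p = 0.041). Over chromosome 20, 61.0% of the tested genes were called lower. The 125 tested genes of chromosome 21 had a median of -0.33, 44.0% of them were as low as RUNX1, and RUNX1 differed from it by -0.06 (exact permutation p = 0.83). Of the 6 nearest tested neighbours of RUNX1 only SETD4 passed the test (-0.48, limma adjusted p = 0.031). Over chromosome 21, 22.4% of the tested genes were called lower. For RUNX2, RUNX3, CBFB and CBFA2T3 the chromosome median was near 0, and the differences from it were -1.47, -2.09, -0.36 and -0.74, each at the smallest exact permutation p of 0.029 (0.043 adjusted over the 6 genes). Of the genes on the same chromosome, 6.05% were as low as RUNX2, 3.38% as low as RUNX3, 18.3% as low as CBFB and 7.87% as low as CBFA2T3. The part of the chromosome shift in these results was not tested further.

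**Figure D4:**
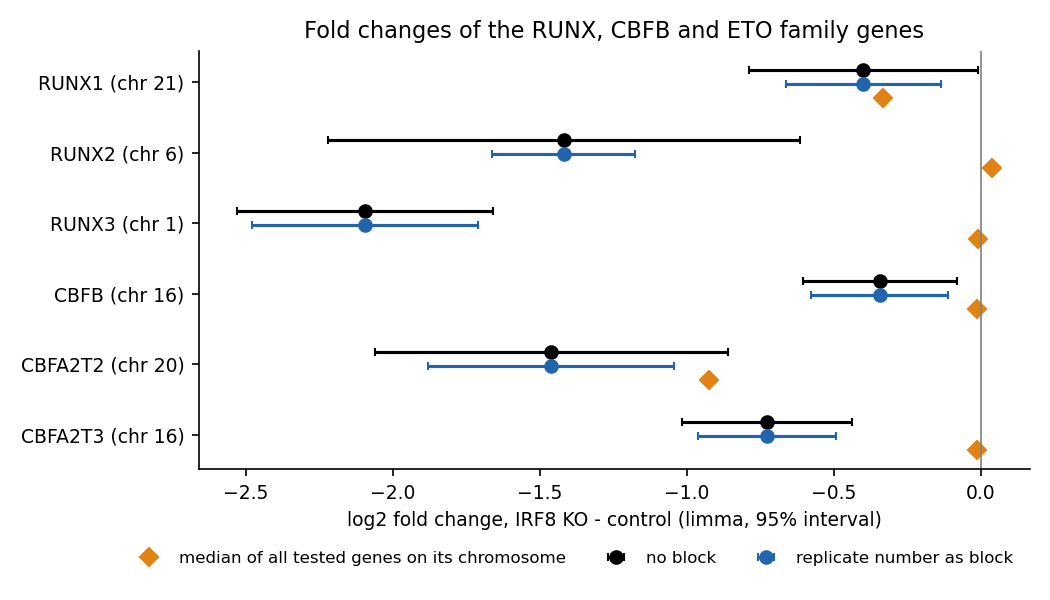
Log2 fold change of the 6 tested genes (horizontal axis, IRF8 KO minus control, limma) with 95% interval, for the fit without a block (black) and the blocked fit (blue), and the median of all tested genes of the same chromosome (orange). The orange points are at -0.92 for CBFA2T2 and -0.33 for RUNX1 and near 0 for the other genes.

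The genes most like each member over the 8 libraries were sought by Pearson's r of log2 values, as a description across libraries that share the group difference. They were SLC1A4 (r = 0.994) for RUNX1, TBC1D12 (0.997) for RUNX2, ATXN7L3 (0.996) for RUNX3, DIS3L (0.987) for CBFB, PCMTD2 (0.993) for CBFA2T2 and NLGN2 (0.992) for CBFA2T3.

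Genes that act with RUNX proteins were then taken from lists written from general knowledge. Of 36 RUNX cofactors and modifiers 32 were tested, 2 rose and 3 fell, with a median of -0.16 on the log2 scale, which are shares near the 8.65% and 9.56% of all genes. In the blocked fit 8 of the 32 fell, beside 1912 of all 13110 genes tested. The corepressor TLE3 (-1.18), the TGFβ signal transducer SMAD2 (-0.91) and the kinase SRC (-2.14, on chromosome 20) fell, and the corepressor TLE4 (0.65) and the ubiquitin ligase WWP1 (0.44) rose. WWP1 was not called when any library but IRF8 KO replicate 2 was left out (limma adjusted p = 0.059 to 0.093). Of 25 partners of the ETO corepressors 23 were tested, 3 rose and 2 fell (median 0.09). The zinc finger repressor ZBTB16 rose from 326 to 1958 normalized counts on average (log2 fold change 2.56), and LYL1 (0.56) and GFI1 (0.55) rose less. TBL1XR1 (-0.51), a part of the NCOR complex, and the E protein TCF3 (-0.43) fell. Leaving out a library ended the call of LYL1 in 6 of 8 fits (limma adjusted p = 0.072 to 0.092), of GFI1 in 5 (0.058 to 0.087) and of TCF3 in 5 (0.061 to 0.078). Of 6 stem cell factors that bind with RUNX1, 3 rose and 0 fell (median 0.60), namely ERG (3.53, from 4.97 to 72.0 normalized counts on average), FLI1 (0.65) and LYL1. ERG reached the minimum of the test through its IRF8 KO libraries alone. TAL1 went the other way (-1.99, 27.9 to 420 normalized counts in control, 1.07 to 98.4 in IRF8 KO libraries) and did not pass the test (limma adjusted p = 0.36). In the blocked fit 4 of the 6 stem cell factors rose and 1 fell, beside 1857 and 1912 of all genes tested.

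Genes regulated by RUNX proteins in different cell types moved in both directions. The counts below stand beside 8.65% called higher and 9.56% called lower of all tested genes. Of 20 myeloid genes with RUNX sites 18 were tested, 7 rose and 2 fell (median 0.42). The transcription factor CEBPE (5.56) and the granule proteins MPO (4.08) and ELANE (3.64) had the largest rises. MPO is also counted among the monocytic markers, as are ITGAM and CD4, so these lists are not separate evidence. MPO went from 712 to 823 normalized counts in control to 8974 to 18443 in IRF8 KO libraries. CD36 (-4.55, 4.31 to 188 against 0 to 4.06 normalized counts) and the integrin ITGAL (-1.39) fell. CD36 passed the minimum through its control libraries alone, and its call was lost without control replicate 1 or 3 or IRF8 KO replicate 2 or 4 (limma adjusted p = 0.057 to 0.072). That of ITGAL was lost without control replicate 4 or IRF8 KO replicate 3 (0.052 and 0.055). Of 12 platelet genes 7 were tested, 3 rose and 0 fell (median 0.94), namely THBS1 (4.09, 73.6 to 2473 normalized counts in IRF8 KO libraries), F13A1 (3.16) and NFE2 (1.78). ITGA2B went the other way (-1.09, 5624 to 14575 in control, 2085 to 10101 in IRF8 KO libraries) and did not pass the test (limma adjusted p = 0.19). In the blocked fit 4 of the 7 rose and 1 fell, beside 1857 and 1912 of all 13110 genes tested. Of 12 genes known from T cells 6 were tested, CD4 (2.46) rose, and TBX21 (-5.05) and IL2RB (-2.79) fell (median -0.04). TBX21 reached the minimum through its control libraries alone, and IL2RB was not called without control replicate 2 or 4 or IRF8 KO replicate 3 (limma adjusted p = 0.055 to 0.061). CD4 is also on the surface of monocytic cells. Of 10 bone genes 3 were tested and 0 passed the test.

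**Figure D5:**
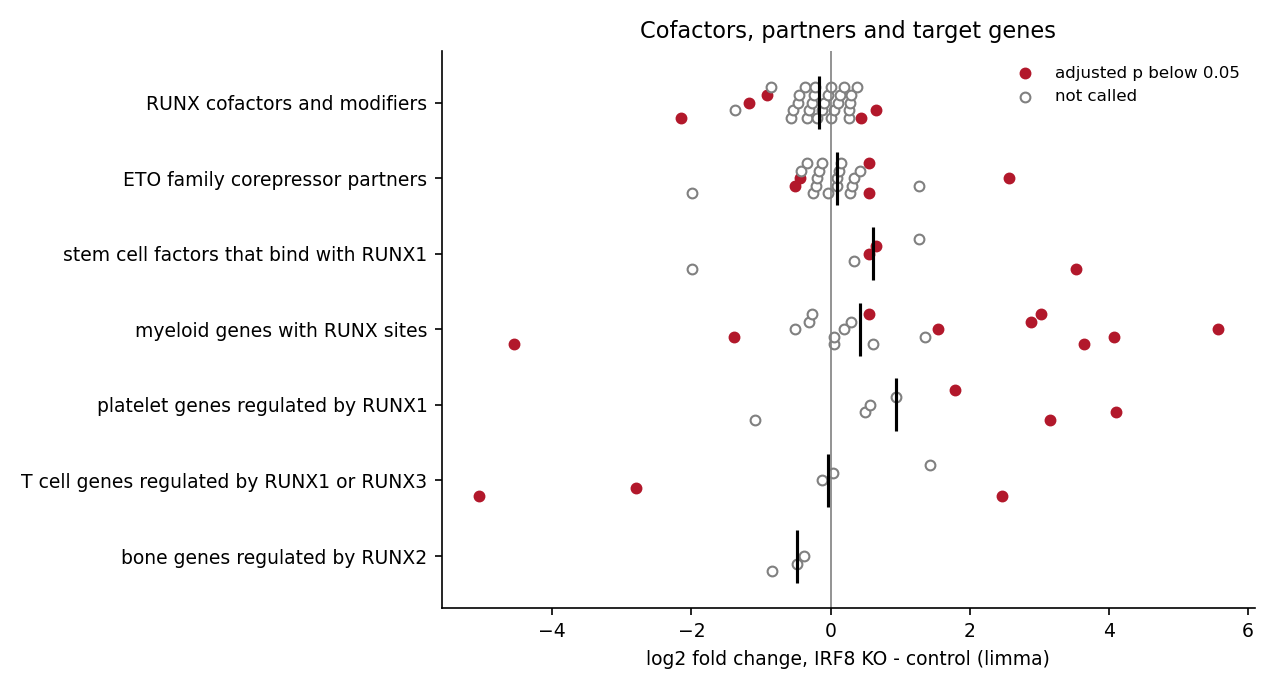
Log2 fold change (horizontal axis, IRF8 KO minus control, limma) of each tested gene in 7 lists, filled where the adjusted p was below 0.05, with the list median as a black line. Myeloid genes with RUNX sites spread from -4.55 (CD36) to 5.56 (CEBPE), and most RUNX cofactors lie near 0.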

How the data were processed

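RNA of MV4-11 cells infected with the control vector (4 libraries) and of IRF8 KO cells (4 libraries) was analysed. Per the study's methods the authors aligned reads with RNA-Star to the GENCODE transcriptome, counted them per gene with featureCounts and normalized with DESeq2. The deposited signal values are read counts scaled by 1 size factor per library, and 100% were whole reads within 0.01 reads, so reads were recovered. The submitters' processing notes list hg19 and hg38 for the series without a role, and gene coordinates here come from RefSeq GRCh38.p14. Columns named WT were taken as control replicates of the same number. A table of the authors' own comparison (fold changes, p-values) and the ChIP-Seq samples were not used.

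limma 3.58.1 in R 4.3.3 compared log2(normalized count + 1) of the 13110 genes averaging 10 or more, using a robust, trended prior variance and Benjamini-Hochberg adjustment. This scale understates changes of low genes. The script was tested on simulated data with independent libraries and the same spread setting for all genes. That setting lacks the shared deviations of these libraries, so it does not show the error rate for them. Exact permutation tests were two-sided. Alternatives used edgeR 4.0.16 and DESeq2 1.42.0 on recovered reads. Same-numbered libraries deviated together across genes (r = 0.37, 0.48, 0.45 and 0.50), but control replicate 1 correlated most with IRF8 KO replicate 3 (0.47), and no source says what a number marks. The genes named were the 7 genes, IRF8, the 3 largest rises and falls called in each list, the nearest tested neighbours, defining markers and the most alike genes. The genes and lists were chosen with earlier results of these data known, and the comparison of pairs of genes after seeing the values. Of the B cell markers, 1 is not reported here.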

Additional observations from a re-analysis of the deposited data

Results flagged for a closer look

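RUNX1T1 stood apart in a single library of each group, control replicate 3 (1.07 normalized counts) and IRF8 KO replicate 4 (0.984 normalized counts), with 0 in the other libraries. Each of these values is 1 read, and a single read beside 3 libraries at 0 is always marked, so the usual chance rate of about 1 group in 20 does not apply to them. They were the 2 marked among 16 groups of 4 libraries examined.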

How the results depend on the processing

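Of the 6 tested genes, 4 were called lower in the reported fit, 5 with upper quartile scaling, quantile normalization or DESeq2, 6 with the replicate block, and 3 to 4 when a library was left out. RUNX3, CBFA2T2 and CBFA2T3 kept their call under all 19 alternatives. RUNX2 lost it without control replicate 2 or 4 or IRF8 KO replicate 1 or 3. CBFB passed with upper quartile scaling (adjusted p = 0.043), quantile normalization (0.020), DESeq2 (0.015) and the replicate block (0.039), and RUNX1 with the replicate block only (0.035). The block changed no other call among these genes. RUNX1 relative to chromosome 21 ranged from -0.16 to 0.069 when a library was left out, with the sign turned without IRF8 KO replicate 3. Over all genes, 2387 were called, 3769 with the replicate block and 1665 to 2442 when a library was left out. Levels per length were not run, as no transcript lengths were at hand. In the gene lists, calls of WWP1, LYL1, GFI1, TCF3, CD36, ITGAL and IL2RB were lost when certain libraries were left out, and those of LYL1 with upper quartile scaling and of GFI1 and CD36 with quantile normalization. With a mean of at least 100, CD36, ERG and TBX21 were not tested. The cause of these shifts was not tested. With 4 libraries a group no exact permutation p can fall below 0.029.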
